A study of Mus musculus with 12 samples.

Results

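The genes described here encode the enzymes that build cholesterol from acetyl-CoA, the regulators that control them, and the main enzymes of fatty acid synthesis. They were taken by name from a list of 30 genes (31 names, since one gene has an older symbol) that was drawn up with earlier results of these data known, although the rule itself uses no measured value, and 29 of the 30 were found among the 22630 gene rows. Hmgcs1 was not analysed here. The 29 genes fall into 6 of the mevalonate arm, 11 of the arm from squalene to cholesterol, 5 regulators and transport genes, and 7 of fatty acid synthesis, and all 29 passed the filter on low counts.

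RNA-seq was done on 12 subcutaneous tumors, 4 in each of 3 groups, grown from KCip53-1 cells. This is a single mouse pancreatic cancer line, sorted for dsRed from a primary tumor. The mouse carried pancreas-directed Ptf1a-Cre, a doxycycline reverse transactivator at R26 and a TRE-driven p53R270H transgene. The transgene was designed so that doxycycline (dox) switches on mutant p53 and its removal switches it off. In such tumors the study saw uneven dsRed on dox, and a few cells that appeared to keep expressing the transgene without it. Each NSG mouse, an immunodeficient host that was 8 to 10 weeks old, received 500000 cells in 50% Matrigel and carried 2 tumors. No-dox tumors grew in hosts without the drug. Hosts of plus-dox tumors drank dox (0.2 g/l in 5% sucrose) over 36 days. Hosts of off-dox tumors drank it over 33 days and then went 3 days without. The study cultured its sorted KCip53 lines with dox, so cells of all groups may have met it before injection. Terms such as on dox and dox-exposed refer here to tumor growth in the host. Every group came from the same line and carried the same transgene. No sucrose is listed for no-dox hosts, so dox, sucrose and mutant p53 cannot be told apart in comparisons with no-dox tumors. Which tumors shared a mouse is not given, and p-values are too small wherever tumors of one group did.

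Cholesterol synthesis starts from acetyl-CoA, passes through mevalonate to farnesyl diphosphate, and then through squalene and lanosterol to cholesterol. When membrane cholesterol is low, SCAP escorts the SREBP proteins from the endoplasmic reticulum to the Golgi, where they are cut and released to switch on most genes of the route, while INSIG proteins hold the complex back when sterols are plentiful. SREBP-2 acts mainly on sterol genes and SREBP-1c mainly on fatty acid genes, and mutant p53 proteins have been described as partners of SREBPs at sterol gene promoters in other tumor cells.

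SREBPs often act next to the factor NF-Y, which binds CCAAT, so promoters of the genes were searched on both strands for CCAAT, for the sterol regulatory element in the form TCACNCCAC and for the E-box CACGTG. RefSeq promoters (GRCm38.p6, 250 bases before to 50 after each start) were found for 23 of the 29 genes. None was found for Fdps, Fdft1, Sqle, Stard4, Scd1 and Scd2. CCAAT was present in 19 of the 23 (82.6%), against 41.1% of 27025 genes with a promoter of this length. CACGTG was present in 5 of the 23 (21.7%), against 8.09% of all. TCACNCCAC was in none of the 23, against 1.44% of all, which says only that these letters were not in these windows. Transcripts of 10 genes had an unadjusted p under 0.05 for lower levels in off-dox than in no-dox tumors. Of these, 8 had a promoter entry and 7 a CCAAT in the window, and Acat2 had none. With CCAAT in 19 of all 23 genes, the box did not set the lower genes apart from the rest. Shown here are the 250 bases before the start of the 5 such genes with 1 promoter entry and a CCAAT there, 5′ to 3′ along the gene. Capitals mark CCAAT, or ATTGG where it lies on the other strand.
Mvk, chr5:114444019-114444268, plus strand: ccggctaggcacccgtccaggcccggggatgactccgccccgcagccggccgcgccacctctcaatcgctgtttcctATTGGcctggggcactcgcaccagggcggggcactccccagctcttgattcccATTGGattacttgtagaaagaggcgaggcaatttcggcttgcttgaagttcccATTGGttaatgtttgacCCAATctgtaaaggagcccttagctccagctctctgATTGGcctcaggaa
Mvd, chr8:122443423-122443672, minus strand: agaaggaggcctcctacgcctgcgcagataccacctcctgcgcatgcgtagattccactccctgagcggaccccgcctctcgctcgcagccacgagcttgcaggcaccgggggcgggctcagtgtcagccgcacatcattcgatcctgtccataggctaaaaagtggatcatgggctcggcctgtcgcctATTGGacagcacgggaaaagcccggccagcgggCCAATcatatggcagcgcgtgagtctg
Cyp51, chr5:4104698-4104947, minus strand: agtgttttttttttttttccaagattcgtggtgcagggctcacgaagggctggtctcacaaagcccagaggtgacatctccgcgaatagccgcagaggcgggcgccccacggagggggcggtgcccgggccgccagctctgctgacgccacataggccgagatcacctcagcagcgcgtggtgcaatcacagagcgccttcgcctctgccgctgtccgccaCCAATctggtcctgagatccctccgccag
Nsdhl, chrX:72918271-72918520, plus strand: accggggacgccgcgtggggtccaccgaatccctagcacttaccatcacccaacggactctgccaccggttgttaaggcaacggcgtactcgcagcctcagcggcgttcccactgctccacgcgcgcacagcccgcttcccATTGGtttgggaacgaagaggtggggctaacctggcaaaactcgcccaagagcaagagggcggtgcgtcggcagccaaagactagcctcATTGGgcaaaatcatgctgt
Ebp, chrX:8193513-8193762, minus strand: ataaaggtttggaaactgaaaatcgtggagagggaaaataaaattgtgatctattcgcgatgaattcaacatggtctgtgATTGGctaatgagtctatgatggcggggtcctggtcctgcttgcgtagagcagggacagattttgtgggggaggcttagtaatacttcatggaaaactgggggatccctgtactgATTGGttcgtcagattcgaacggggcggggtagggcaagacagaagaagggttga
Mvk held 5 copies, Mvd, Nsdhl and Ebp 2 each and Cyp51 1. A match is a run of letters and was not tested as a bound site.

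The 12 libraries held 19845923 to 33137609 counted reads, and the lowest count of any of the 29 genes in any tumor was 119 (Acss2). Plus-dox tumor 2 and off-dox tumor 4 stood apart from the other 10 on the leading principal component of all genes (49.8% of the variance), so results are given with and without them where they differ. The share of mapped reads counted to genes was 88.4 to 89.4% in the no-dox group, 82.2 to 87.1% in the plus-dox group and 81.1 to 85.8% in the off-dox group, so that it separated the no-dox group from both others. Trp53, whose row does not tell the transgene from the endogenous gene, was at 47.7 ± 7.27 RPKM (reads scaled by transcript length and by mapped reads) in no-dox, 48.5 ± 6.44 in the plus-dox group and 44.0 ± 1.72 in the off-dox group (SD, n = 4), and so gave no check of the dox labels. By PCR and sequencing, the study found mutant but no wild-type p53 sequence in the KCip53 lines it examined. The parts of host cells and of the transgene in the Trp53 level were not tested. The labelled tissue, epithelial tumor, was checked by the summed level of 12 epithelial genes (Krt8, Krt18, Epcam and others), which was 2331 to 3155 RPKM in the no-dox group, 1366 to 2064 in the plus-dox group and 1082 to 2701 in the off-dox group, with 11 of the 12 genes lower in plus-dox and 10 of the 12 lower in off-dox than in no-dox tumors. Most of each epithelial sum was Krt8 and Krt18, which in plus-dox tumor 2 and off-dox tumor 4 were within the range of the other 10. Epcam was at 7.76 RPKM in plus-dox tumor 2 and 40.9 in off-dox tumor 4, against 72.3 to 388 in the others. Esrp1 was at 0.578 and 2.27 in these tumors, against 5.49 to 20.6. Skeletal muscle sums ran from 12.4 to 215 RPKM in the no-dox group, 174 to 535 in the plus-dox group and 13.8 to 1467 in the off-dox group. All 12 muscle genes were higher in both dox groups than in no-dox tumors, with an unadjusted p under 0.05 for 3 of them under plus-dox and for 8 under off-dox. Actn3, a muscle actinin, was called higher (adjusted p under 0.1 and over 1.5-fold) in off-dox than in no-dox tumors, at a log2 fold change of 4.53 (edgeR, adjusted p = 0.0876), where the background was 1.03% higher, and no other muscle gene was called by edgeR in any comparison. In that comparison 5 muscle genes were called by DESeq2, 0 by limma-voom and 10 with the pair that stood apart left out, and edgeR called 0 without any 1 of the 4 no-dox tumors, plus-dox tumor 3 or 4, or off-dox tumor 2, 3 or 4. Sums of 10 fibroblast genes were 1209 to 2157 RPKM in the no-dox group, 1714 to 3229 in the plus-dox group and 1402 to 1623 in the off-dox group. Of these, 9 were higher in plus-dox than in no-dox tumors, 5 with an unadjusted p under 0.05, and 4 were higher in the off-dox group, where 1 was lower with an unadjusted p under 0.05. Sums of 10 endothelial genes were 48.2 to 66.3 RPKM in the no-dox group, 57.9 to 167 in the plus-dox group and 52.4 to 77.3 in the off-dox group, with all 10 higher under plus-dox, 5 with an unadjusted p under 0.05, and 8 higher under off-dox, none with one. In bulk tumors, fewer cells of a type and less RNA per cell cannot be told apart.

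Tumors that had been on dox, with or without later withdrawal, had slightly lower mean levels of most cholesterol synthesis transcripts than no-dox tumors, and no single gene passed the test. A gene was called when its Benjamini-Hochberg adjusted p over 17561 genes was under 0.1 in edgeR's quasi-likelihood test and it differed by more than 1.5-fold. In plus-dox against no-dox tumors, 27 of the 29 genes had a negative log2 fold change and 2 a positive one (background above 0, 51.4%), with a median of -0.25 (16.1% lower) against 0.013 over all genes tested. None of the 29 was called, where the background was 0% of all genes, and 1 (Cyp51) was lower with an unadjusted p under 0.05, where the background was 5.67%. In no gene of the 29 were the plus-dox and no-dox groups without overlap, where the background was 4.49% lower and 4.37% higher. In off-dox against no-dox tumors, 28 of the 29 had a negative log2 fold change and 1 a positive one (background above 0, 50.7%), with a median of -0.34 (20.9% lower) against 0.0072 over all genes. Again none was called, where the background was 1.34% of all genes (0.307% lower and 1.03% higher), while 10 of the 29 (34.5%) were lower with an unadjusted p under 0.05, where the background was 9.48%. Both comparisons used the same 4 no-dox tumors, so their directions are not independent of each other. DESeq2 also called none of the 29 in either comparison, where it called 0.729% of all genes under plus-dox and 3.5% under off-dox. It gave an unadjusted p under 0.05 for 3 of the 29 under plus-dox, where the background in either direction was 14.4%, and for 10 under off-dox, where it was 21%. Limma-voom with tumor weights called 1 (Cyp51) under plus-dox, where the background was 0.638%, and 2 (Acat2 and Pmvk) under off-dox, where it was 3.65%. Its unadjusted p was under 0.05 for 17 of the 29 under plus-dox, against 21.9% of all genes, and for 13 under off-dox, against 26.1%.

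The count of 10 rested on single tumors: it was 3 without no-dox tumor 1, no-dox tumor 2 or off-dox tumor 2, 4 without off-dox tumor 3, 6 without no-dox tumor 3 and 15 without no-dox tumor 4. In plus-dox against no-dox tumors the count of 1 became 12 when plus-dox tumor 2 was dropped, 10 when no-dox tumor 4 was, 4 when plus-dox tumor 1 was, and 2 to 3 when no-dox tumor 1 or 3 or off-dox tumor 1, 3 or 4 was. With plus-dox tumor 2 and off-dox tumor 4 both left out, the medians were -0.33 for plus-dox and -0.34 for off-dox tumors against no-dox, and the counts at an unadjusted p under 0.05 were 12 and 13, against 12.3% and 22.7% of all genes in either direction. As single tumors were left out, that share of all genes ran from 8.92 to 17.96% for plus-dox and from 15.4 to 24.6% for off-dox against no-dox tumors. The share of reads counted to genes and the muscle and epithelial genes moved with these results in both dox groups. Fibroblast and endothelial genes did so in the plus-dox group. Of 12 adipocyte genes, 11 were lower in plus-dox and 12 in off-dox than in no-dox tumors, none with an unadjusted p under 0.05. The part of these shifts in the results was not tested.

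**Figure D1:**
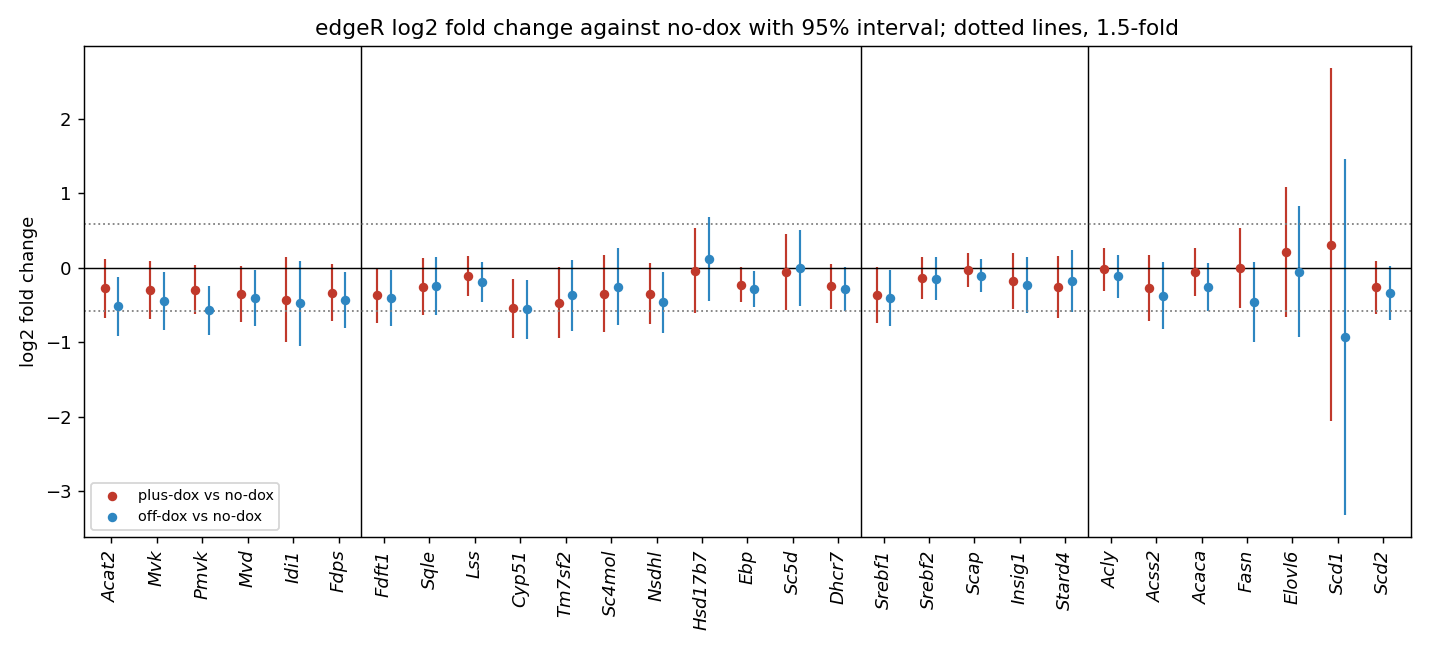
The log2 fold change of each gene against no-dox tumors, with its 95% interval, is plotted for plus-dox (red) and off-dox (blue) tumors, with genes in pathway order and vertical lines between the 4 roles. Most points lie a little below 0, Cyp51 has intervals below 0 in both comparisons, and the intervals of Scd1 run from -3.32 to 2.68.

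Of the 6 genes of the mevalonate arm, all 6 had a negative log2 fold change in both comparisons, with medians of -0.31 in the plus-dox group and -0.46 in off-dox against no-dox tumors, and 5 of the 6 had an unadjusted p under 0.05 in the latter. Pmvk (phosphomevalonate kinase, the second of the 2 kinases that prepare mevalonate for decarboxylation, mm9 chr3:89263040-89272931) came closest to a call. Its levels were 16.7, 16.1, 16.6 and 11.4 RPKM in no-dox tumors 1 to 4, 13.9, 13.8, 9.02 and 12.7 in the plus-dox group, and 11.5, 8.88, 10.2 and 9.51 in the off-dox group. No-dox tumors 1 to 3 sat above all the others, and no-dox tumor 4 was within the range of the off-dox group in RPKM, where off-dox tumor 1 was the highest. On the log2 CPM scale with TMM normalization, no-dox tumor 4 (4.36) was just above off-dox tumor 1 (4.34), so Pmvk was the 1 gene of the 29 whose off-dox and no-dox groups did not overlap, where 5.69% of all genes were lower and 5.85% higher without overlap. The log2 fold change of Pmvk was -0.57 ± 0.15 (SE) in off-dox tumors, a 1.48-fold difference that missed the 1.5-fold limit, with an adjusted p of 0.0958, and -0.29 ± 0.15 in plus-dox tumors, with an adjusted p of 0.409. Its adjusted p in off-dox tumors ran from 0.0590 to 0.231 as single tumors were left out, and without off-dox tumor 1 it was called, at -0.63.

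Mvk (mevalonate kinase, mm9 chr5:114894315-114910599) stood at 13.1, 13.2, 11.8 and 8.69 RPKM in the no-dox group, 10.8, 10.7, 6.69 and 9.67 in the plus-dox group, and 9.56, 6.33, 8.73 and 9.10 in the off-dox group. No-dox tumor 4 was again the low one of its group and lay among the off-dox tumors, while the other 3 no-dox tumors were above every dox-exposed tumor. The log2 fold change was -0.44 ± 0.18 in off-dox (adjusted p = 0.196) and -0.30 ± 0.18 in plus-dox tumors (adjusted p = 0.453). Mvd, the decarboxylase that yields isopentenyl diphosphate (mm9 chr8:124957496-124967322), was at 13.6, 14.6, 13.7 and 10.6 RPKM in the no-dox group, 10.9, 13.7, 7.63 and 8.65 in the plus-dox group, and 9.89, 8.55, 9.35 and 10.8 in the off-dox group. No-dox tumor 4 lay below plus-dox tumor 1 and off-dox tumor 4, and plus-dox tumor 2 sat among the other no-dox tumors, with log2 fold changes of -0.41 ± 0.17 in off-dox (adjusted p = 0.212) and -0.35 ± 0.17 in plus-dox tumors (adjusted p = 0.395).

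Acat2, a cytosolic thiolase that joins acetyl-CoA units at the head of the route (mm9 chr17:13135908-13153591), measured 14.8, 10.7, 12.2 and 8.89 RPKM in the no-dox group, 10.5, 11.9, 6.77 and 9.12 in the plus-dox group, and 8.30, 7.41, 7.04 and 9.05 in the off-dox group. The off-dox group was low and tight, and only off-dox tumor 4 reached the lowest no-dox tumor. Its log2 fold change was -0.52 ± 0.18 in off-dox (adjusted p = 0.152) and -0.27 ± 0.18 in plus-dox tumors (adjusted p = 0.489), and with plus-dox tumor 2 and off-dox tumor 4 left out it was called in off-dox tumors, at -0.60. Fdps (farnesyl diphosphate synthase, at the branch to sterols and to protein prenylation, mm9 chr3:88897510-88905867) was the most abundant of this arm, at 70.0, 82.9, 67.9 and 48.2 RPKM in the no-dox group, 56.3, 68.9, 38.9 and 47.8 in the plus-dox group, and 53.5, 47.3, 43.4 and 50.5 in the off-dox group. Here too no-dox tumor 4 lay within the dox-exposed range, and the log2 fold changes were -0.43 ± 0.17 in off-dox (adjusted p = 0.196) and -0.33 ± 0.17 in plus-dox tumors (adjusted p = 0.414). Idi1, the isomerase that precedes Fdps, ranged from 26.4 to 60.3 RPKM in the no-dox group, 20.1 to 44.4 in the plus-dox group and 25.4 to 35.4 in the off-dox group, with log2 fold changes of -0.43 in the plus-dox group and -0.48 in the off-dox group.

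Some of these transcripts have near-identical copies. All 50-base words were taken from GENCODE exons of each gene, which are not the RefSeq models used for counting. The extent could differ, with 9739 words for Lss against a counted length of 2914 bases, and 743 for Fdps against 1223. The share of words found again elsewhere in mm9 was 84.4% for Idi1, 68.7% for Acaca and 65.5% for Fdps. It was 42.2% for Acat2, 33.1% for Insig1 and 19.7% for Fdft1, and at most 7.75% for the other 23 genes. How reads with several matches were counted is not given in the sources used here, so values of these 6 genes are uncertain, whereas Pmvk, Mvd, Nsdhl, Ebp and Srebf1 had no such word.

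**Figure D2:**
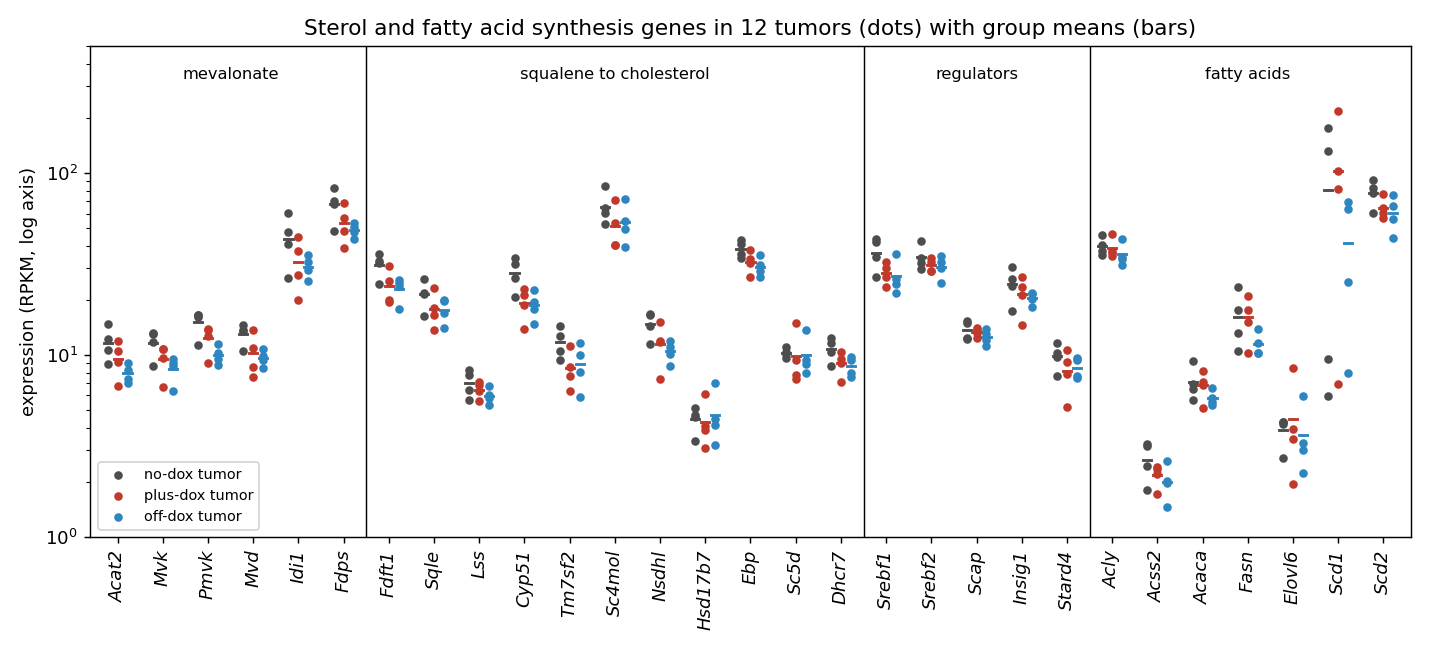
Expression of each gene in RPKM on a log axis is plotted for the 4 no-dox (grey), 4 plus-dox (red) and 4 off-dox (blue) tumors, with a bar at each group mean and genes in pathway order. Groups overlap in every gene on this scale. Scd1 spreads from 5.96 to 219 RPKM, while the other 28 genes differ by 1.37 to 4.35 times between their lowest and highest tumor.

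In the arm from squalene to cholesterol, all 11 genes had a negative log2 fold change in plus-dox and 10 of the 11 in off-dox against no-dox tumors, with medians of -0.25 and -0.28. Cyp51 (lanosterol 14-alpha-demethylase, the first step after lanosterol, mm9 chr5:4080674-4104697) differed most in both comparisons. Its levels were 26.7, 34.1, 31.5 and 20.9 RPKM in the no-dox group, 21.4, 23.2, 13.8 and 18.8 in the plus-dox group, and 22.8, 19.7, 14.8 and 17.9 in the off-dox group. No-dox tumors 1 to 3 exceeded every dox-exposed tumor, and no-dox tumor 4 was below plus-dox tumors 1 and 2 and off-dox tumor 1. The group means were 28.3 ± 5.78, 19.3 ± 4.08 and 18.8 ± 3.33 RPKM (SD, n = 4). The log2 fold change was -0.54 ± 0.18 in plus-dox (adjusted p = 0.326) and -0.56 ± 0.18 in the off-dox group (adjusted p = 0.135), and of the alternatives run only the one without off-dox tumor 1 called it in off-dox tumors, at -0.65.

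Fdft1 (squalene synthase, the first enzyme committed to sterols, mm9 chr14:63764759-63796630) was at 32.7, 35.8, 32.2 and 24.6 RPKM in the no-dox group, 25.4, 30.9, 20.04 and 19.6 in the plus-dox group, and 24.8, 24.0, 17.9 and 25.8 in the off-dox group. The no-dox tumors other than tumor 4 lay above all dox-exposed tumors, and the log2 fold changes were -0.40 ± 0.17 in off-dox (adjusted p = 0.212) and -0.37 ± 0.17 in plus-dox tumors (adjusted p = 0.367). Nsdhl, one of the enzymes that remove the methyl groups at carbon 4 of the sterol ring (mm9 chrX:70163860-70203867), was at 16.6, 16.8, 14.4 and 11.5 RPKM in the no-dox group, 12.0, 15.2, 7.40 and 11.8 in the plus-dox group, and 11.1, 10.2, 8.75 and 12.0 in the off-dox group. Plus-dox tumor 3 was lowest of the 12 and plus-dox tumor 2 was among the no-dox tumors. The log2 fold change of Nsdhl was -0.46 ± 0.19 in off-dox (adjusted p = 0.200) and -0.35 ± 0.19 in plus-dox tumors (adjusted p = 0.421).

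Ebp, the isomerase that shifts the double bond of the sterol ring (mm9 chrX:7762457-7770638), showed little spread, at 40.6, 42.7, 35.8 and 34.0 RPKM in the no-dox group, 37.8, 33.6, 26.8 and 32.1 in the plus-dox group, and 35.5, 28.9, 27.0 and 31.2 in the off-dox group. The off-dox tumors except tumor 1 were below all no-dox tumors, and the log2 fold changes were -0.29 ± 0.11 in off-dox (adjusted p = 0.181) and -0.22 ± 0.11 in plus-dox tumors (adjusted p = 0.392). Sc4mol (the symbol in these files for the C4-methylsterol oxidase now named Msmo1, mm9 chr8:67196942-67212375) was the most abundant gene of the arm, at 60.2, 64.3, 85.2 and 52.6 RPKM in the no-dox group, 53.2, 71.4, 40.4 and 40.2 in the plus-dox group, and 49.4, 54.3, 39.1 and 72.4 in the off-dox group. Plus-dox tumor 2 and off-dox tumor 4 were as high as the no-dox tumors, and neither log2 fold change (-0.35 ± 0.24 in the plus-dox group and -0.25 ± 0.24 in the off-dox group) passed the test.

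None of the other 6 genes of this arm had an unadjusted p under 0.05. Tm7sf2, a sterol reductase, had log2 fold changes of -0.47 in the plus-dox group and -0.37 in the off-dox group, Dhcr7, which makes cholesterol in the last step of one branch, -0.25 and -0.28, Sqle (squalene epoxidase) -0.25 and -0.25, and Lss (lanosterol synthase) -0.10 and -0.19. Hsd17b7 and Sc5d stayed near 0, with -0.036 and 0.12 for Hsd17b7 and -0.050 and -0.0074 for Sc5d. Their intervals in off-dox tumors ran from -0.45 to 0.69 and from -0.52 to 0.50, so moderate differences either way were within the error.

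**Figure D3:**
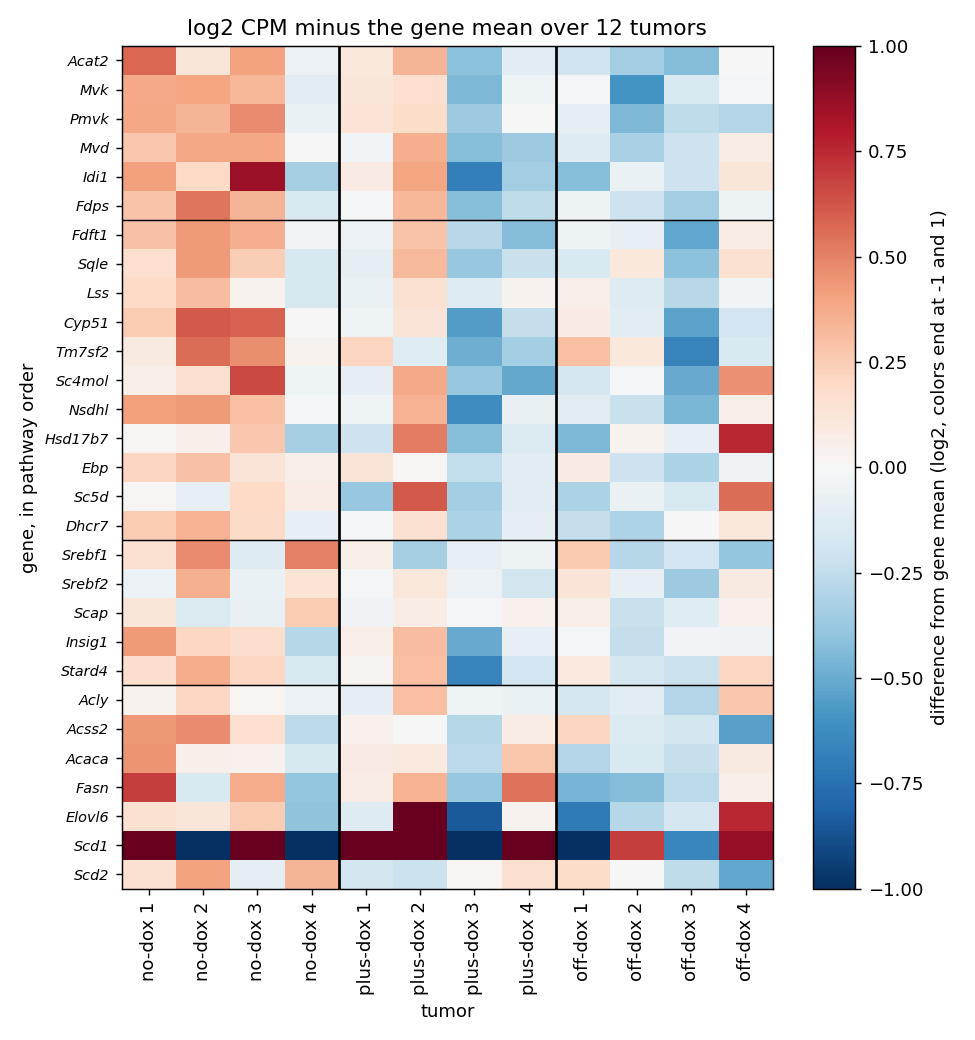
Each cell shows a gene's log2 CPM in 1 tumor minus its mean over the 12 tumors (red higher, blue lower, colors ending at -1 and 1), with genes in pathway order and black lines between roles and groups. Among the sterol enzymes, plus-dox tumor 3 is blue, no-dox tumor 4 is pale or blue apart from a faint red in Sc5d, Ebp and Tm7sf2, and plus-dox tumor 2 is red except in Tm7sf2, which is blue, and Ebp, which is near white.

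Much of the spread in the 17 sterol enzymes lay between tumors of one group. No-dox tumor 4 was the lowest of its group in 16 of the 17, plus-dox tumor 3 the lowest of its group in 14, and plus-dox tumor 2 the highest of its group in 15. Averaged over the 17 enzymes, the log2 CPM relative to each gene's mean was 0.25, 0.32, 0.37 and -0.081 in no-dox tumors 1 to 4, -0.015, 0.27, -0.41 and -0.20 in the plus-dox group, and -0.11, -0.17, -0.32 and 0.095 in the off-dox group. The 3 highest were no-dox tumors 3 and 2 and plus-dox tumor 2, and the group means were 0.22 ± 0.20, -0.088 ± 0.29 and -0.13 ± 0.17 (SD, n = 4). This is a description of the list, with no test.

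Among the regulators, Srebf1 (which encodes both SREBP-1 forms, mm9 chr11:60012698-60034106) was at 34.8, 43.2, 26.7 and 41.6 RPKM in the no-dox group, 32.3, 23.7, 26.9 and 30.0 in the plus-dox group, and 36.1, 24.5, 26.3 and 21.8 in the off-dox group. It did not follow the enzymes tumor by tumor, since no-dox tumor 4 was the second highest of the 12 and plus-dox tumor 2 the lowest of its group. The log2 fold change was -0.40 ± 0.17 in off-dox (adjusted p = 0.216) and -0.37 ± 0.17 in plus-dox tumors (adjusted p = 0.370). Srebf2 (SREBP-2, mm9 chr15:81977699-82035390), the main driver of sterol genes and the most abundant of the 5 on the per-length scale, was at 32.0, 42.4, 29.7 and 34.2 RPKM in the no-dox group, 32.6, 34.2, 29.0 and 29.0 in the plus-dox group, and 35.1, 29.9, 24.8 and 32.4 in the off-dox group. Apart from no-dox tumor 2 the groups shared one range, with log2 fold changes of -0.14 ± 0.13 in the plus-dox group and -0.14 ± 0.13 in the off-dox group.

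Scap ranged over only 11.2 to 15.4 RPKM in the 12 tumors, the narrowest span of the 29 genes (1.37 times), with log2 fold changes of -0.030 in the plus-dox group and -0.10 in the off-dox group. Insig1, the sterol-sensing retention factor and itself an SREBP target, had -0.18 and -0.23, and Stard4, a carrier of cholesterol in the cytosol, -0.25 and -0.17. None of these 3 had an unadjusted p under 0.05 in either comparison.

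For the 7 genes of fatty acid synthesis the median log2 fold change was -0.021 in plus-dox tumors, with 5 of the 7 negative, and -0.34 in the off-dox group, with all 7 negative. None of the 7 had an unadjusted p under 0.05. Acly, which supplies cytosolic acetyl-CoA from citrate, had log2 fold changes of -0.021 in the plus-dox group and -0.11 in the off-dox group, Acss2, which makes acetyl-CoA from acetate, -0.27 and -0.37, and Acaca, the carboxylase that forms malonyl-CoA, -0.052 and -0.25. Fasn (fatty acid synthase) ranged from 10.5 to 23.8 RPKM in the no-dox group, 10.3 to 21.3 in the plus-dox group and 10.3 to 13.99 in the off-dox group. Its log2 fold changes were -0.0052 ± 0.25 and -0.45 ± 0.25, the latter with an adjusted p of 0.317. Elovl6, which lengthens palmitate, ran from 1.95 to 8.50 RPKM, with both ends in the plus-dox group. Scd2, the desaturase expressed in many tissues, was at 44.2 to 91.5 RPKM, with log2 fold changes of -0.26 and -0.34.

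Scd1, the stearoyl-CoA desaturase of fat and liver (mm9 chr19:44468940-44482199), had the highest mean of the 29 genes and by far the widest spread. It was at 132, 9.51, 177 and 5.96 RPKM in the no-dox group, 102, 81.4, 6.97 and 219 in the plus-dox group, and 7.98, 63.7, 25.3 and 69.2 in the off-dox group. Each group held at least 1 tumor under 10 RPKM and at least 2 above 60 RPKM, so the groups overlapped throughout. Its log2 fold change was 0.31 ± 1.09 in the plus-dox group and -0.93 ± 1.10 in the off-dox group, and adjusted p was 0.906 and 0.655. The value in plus-dox tumors turned negative without no-dox tumor 2, no-dox tumor 4 or plus-dox tumor 4 (down to -0.36).

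Levels of Scd1 moved with the summed level of adipocyte transcripts. The summed RPKM of 12 adipocyte genes (Adipoq, Plin1, Cidec, Cfd, Fabp4 and others) was 1405, 94.9, 1133 and 44.0 in the no-dox group, 636, 428, 49.1 and 880 in the plus-dox group, and 60.2, 289, 222 and 404 in the off-dox group. The 4 tumors with the least Scd1, from 5.96 to 9.51 RPKM, were the 4 with the lowest sums, and the 3 with the most were the 3 with the highest sums. Adipoq itself was at 0.109 RPKM in no-dox tumor 4 and 57.3 in no-dox tumor 1, and no adipocyte gene was at 0 in any tumor. Cidea, 1 of the 12, ran the other way. It was highest in no-dox tumor 4 (24.9 RPKM), which had the least Scd1, and lowest in plus-dox tumor 2 (0.918) and off-dox tumor 4 (1.81). All 12 adipocyte genes had a negative log2 fold change in off-dox and 11 of the 12 in plus-dox against no-dox tumors, none with an unadjusted p under 0.05. Fasn was also highest in no-dox tumor 1 (23.8 RPKM) and plus-dox tumor 4 (21.3). It was 10.3 to 10.5 RPKM in no-dox tumor 4, plus-dox tumor 3 and off-dox tumor 1, where the adipocyte sums were lowest. It was as low (10.3) in off-dox tumor 2, whose sum was 289. The part of the adipocyte genes in the levels of Scd1 and Fasn was not tested. Of the sebaceous gland and epidermis list, Awat1 and Flg2 were at 0 in all 12 tumors, and the sum of its 10 genes, mostly Krt14, was 18.5 to 51.3 RPKM in the no-dox group, 9.16 to 23.8 in the plus-dox group and 10.9 to 16.3 in the off-dox group. In off-dox against no-dox tumors 7 genes of that list were tested, with 4 lower and 3 higher. Krt14, a keratin of the basal epidermis, was the 1 gene of that list called. Its log2 fold change was -1.72 in off-dox against no-dox tumors (edgeR, adjusted p = 0.0897), where the background was 0.307% lower. It was not called without any 1 of the 4 no-dox tumors, plus-dox tumor 3 or 4, or off-dox tumor 2, 3 or 4. Krt14 ran from 4.25 to 47.7 RPKM over the 12 tumors. Other keratins of the list were lower, with Krt5 at 0 to 0.894 RPKM, Krt1 at 0 to 0.0166 and Krt10 at 2.17 to 3.44. Whether Krt14 came from skin or from tumor cells was not tested.

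**Figure D4:**
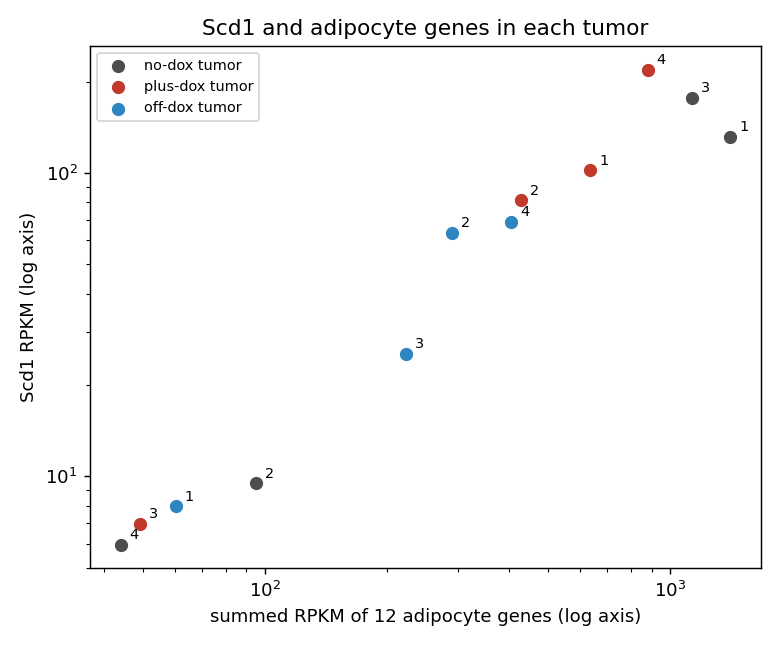
The RPKM of Scd1 (vertical, log axis) is plotted against the summed RPKM of 12 adipocyte genes (horizontal, log axis) in each of the 12 tumors, colored by group and numbered by tumor. Tumors of all 3 groups lie along one band from 5.96 RPKM of Scd1 at a sum of 44.0 to 219 RPKM at a sum of 880.

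Between tumors 3 days after removal of dox and tumors kept on dox, no difference in these genes was detectable with 4 tumors a group. In off-dox against plus-dox tumors the median log2 fold change of the 29 genes was -0.064 against -0.00051 over all genes, with 23 negative and 6 positive (background above 0, 49.8%). The 2 groups overlapped in all 29, where the background without overlap was 0.752% lower and 0.649% higher. None was called, where the background was 0% of all genes, none had an unadjusted p under 0.05, where the background was 1.81% lower and 1.25% higher, and the adjusted p was 1 for all 29. DESeq2 and limma-voom called none either, where they called 0.0342% and 0% of all genes, with 0 and 1 of the 29 at an unadjusted p under 0.05, where the background in either direction was 3.06% and 4.97%. The nearest were Pmvk at -0.28, with an interval from -0.60 to 0.053, and Fasn at -0.45, with an interval from -0.99 to 0.090, and Scd1 had the largest difference at -1.24, with an interval from -3.64 to 1.17. These intervals still allow differences as large as those seen against no-dox tumors. Without plus-dox tumor 2 the median was 0.045 and 17 of the 29 were positive, and without plus-dox tumor 3 it was -0.13 and 3 were positive.

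Genes of neighbouring lipid routes were examined as lists. Of 30 other genes of lipid synthesis (elongases, desaturases, acyl-CoA synthetases, glycerolipid enzymes), 22 were lower in plus-dox and 21 in off-dox than in no-dox tumors, with medians of -0.11 and -0.20, and none was called. Lower levels with an unadjusted p under 0.05 were found for 2 of the 30 in the plus-dox group and 8 in the off-dox group, where the background for lower levels was 5.67% and 9.48%, and 1 in the off-dox group was higher. Of 14 genes of cholesterol efflux, storage and trafficking, 9 were higher in plus-dox and 8 in the off-dox group, with medians of 0.22 and 0.039. Those with an unadjusted p under 0.05 numbered 1 higher and 1 lower in plus-dox tumors, and 2 higher and 1 lower in off-dox tumors, where the background for higher levels was 8% and 10.9%. None of the 14 was called.

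The last list was fatty acid oxidation, the mitochondrial and peroxisomal breakdown of fatty acids that opposes synthesis. Of its 16 genes, 14 were lower in each comparison against no-dox tumors, with medians of -0.27 in the plus-dox group and -0.32 in the off-dox group. Unadjusted p was under 0.05 for 8 of the 16 in the plus-dox group and 10 in the off-dox group, all lower, where the background for lower levels was 5.67% and 9.48%, and none was called, where the background was 0% and 1.34%. Their summed level was 423 to 500 RPKM in the no-dox group, 321 to 436 in the plus-dox group and 307 to 405 in the off-dox group, so that the off-dox and no-dox groups did not overlap. In off-dox against plus-dox tumors none of the 16 had an unadjusted p under 0.05. DESeq2 called 2 genes of other lipid synthesis, 1 of efflux and 1 of oxidation in off-dox against no-dox tumors (3.5% of all genes), limma-voom with tumor weights called 2, 1 and 3 (3.65% of all genes), and neither called any of these lists in plus-dox tumors.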

How the data were processed

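Polyadenylated, non-stranded RNA-seq libraries were sequenced from 12 tumors. The authors aligned reads to mm9 with TopHat (Bowtie, CASAVA and bedtools also stand in the submitters' processing notes) and condensed RefSeq to 1 unstranded model per gene. They deposited, per tumor and gene, an expected count, estimated from base coverage of unambiguous exonic spans and therefore often not whole (56.7 to 61.1% of counts differed from a whole number by more than 0.001), and an RPKM value scaled by length and mapped reads. Groups were taken from the sample labels, and 1 allele that all groups share is not reported here.

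Counts were rounded. Genes whose 12 counts added up to 10 or more entered edgeR 4.0.16 (R 4.3.3; TMM, quasi-likelihood test, all 12 tumors in 1 fit), with Benjamini-Hochberg adjustment over all 17561 genes. Following the study's limits, a call needed adjusted p under 0.1, over 1.5-fold, mean RPKM over 0.25 and length over 250 bp. The study applied these limits to DESeq2, not edgeR. In plus-dox against no-dox tumors DESeq2 here called 0.729% of all genes and edgeR 0%. RPKM values were used for description. Alternatives used DESeq2 1.42.0, limma 3.58.1, other scalings, filters and sets of tumors. The code was tested on simulated counts. Values of all 12 tumors were printed for genes called, without overlap or with an unadjusted p under 0.05 in any comparison, and for the most abundant gene of each role. The members and lists were drawn up with earlier results of these data known, although the rule for members uses only names. No 2 replicates agreed within sampling noise. Without strand, reads of a gene and of an overlapping antisense gene cannot be told apart.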

Additional observations from a re-analysis of the deposited data

Results flagged for a closer look

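In 3 of 87 tests of a gene within a group of 4 tumors, the most extreme tumor's gap to its nearest neighbour, as a share of the group's range on log2 CPM, was above Dixon's 95% critical value, and chance flags about 1 group in 20. Mvk was lowest in no-dox tumor 4 (share 0.866), at 8.69 RPKM against 11.8 to 13.2 in the other 3. Insig1 was lowest in off-dox tumor 2 (share 0.9), at 18.4 RPKM against 20.4 to 21.8. Acly was highest in plus-dox tumor 2 (share 0.871), at 46.4 RPKM against 34.9 to 37.4.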

How the results depend on the processing

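Under every alternative run the medians of the 29 genes moved by less than 0.23, the pooled SD between tumors of their mean log2 CPM. This limit is wide. It is near the size of the median in plus-dox against no-dox tumors (-0.25). It exceeds that in off-dox against plus-dox tumors (-0.064), which changed sign. As single tumors were left out, they ranged from -0.33 to -0.16 in plus-dox against no-dox, from -0.39 to -0.27 in off-dox against no-dox and from -0.13 to 0.045 in off-dox against plus-dox tumors. Counts of called genes were 0 except as follows. With limma-voom and tumor weights 1 gene was called in plus-dox and 2 in off-dox against no-dox tumors. In off-dox against no-dox tumors 1 was called with no limit on fold change (Pmvk) and 1 with plus-dox tumor 2 and off-dox tumor 4 both left out (Acat2), and 0 to 2 as single tumors were left out, the 2 being Pmvk and Cyp51 without off-dox tumor 1. The cause of these shifts was not tested. Genes near 0 changed sign. In plus-dox against no-dox tumors Fasn was 0.0078 with at least 10 counts required in every tumor and 0.0072 on log2 RPKM, and Elovl6 was -0.21 with limma-voom and -0.32 without the pair of tumors. In off-dox against no-dox tumors Hsd17b7 was -0.0047 with limma-voom and -0.16 without that pair, and Sc5d was 0.00093 with DESeq2, 0.00090 with RLE factors and 0.015 with at least 10 counts in every tumor. As single tumors were left out, sign changes in plus-dox against no-dox tumors gave ranges of -0.13 to 0.079 for Acaca, -0.12 to 0.035 for Acly, -0.32 to 0.45 for Elovl6, -0.16 to 0.21 for Fasn, -0.27 to 0.077 for Hsd17b7, -0.33 to 0.058 for Sc5d, -0.089 to 0.046 for Scap and -0.36 to 1.09 for Scd1, and in off-dox against no-dox tumors -0.42 to 0.13 for Elovl6, -0.17 to 0.27 for Hsd17b7 and -0.23 to 0.096 for Sc5d.

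The replicate numbers did not pair the tumors: deviations of same-numbered tumors correlated at a mean r of -0.088 (12 pairs, -0.45 to 0.57) against 0.043 for 36 pairs of different number. With the replicate number as a block, 0 of the 29 genes were called in each comparison, with 4 and 8 at an unadjusted p under 0.05 in plus-dox and off-dox against no-dox tumors and medians of -0.25 and -0.34.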
